A study of Caenorhabditis elegans with 48 samples.

Results

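The genes described here are 36 components of DNA replication and the mitotic cell cycle in the nematode Caenorhabditis elegans. These genes were chosen by name and not by any measured value, but with earlier results of these data known. They were grouped by role as 11 origin and licensing factors, 5 fork and nucleotide supply genes, 6 cyclin-dependent kinases (CDKs) and cyclins, 5 regulators of CDK activity, 5 mitotic kinases and kinetochore proteins, and 4 genes of the anaphase-promoting complex. Rows were found for 35 of the 36, among 19454 genes in the mRNA table and 10741 genes in the ribosome footprint table, and cdc-25.2 was not analysed here. All 35 passed the filters on low counts in both assays. The lowest count of any of them was 146 for emb-1 in mRNA-seq and 35 for wee-1.1 in Ribo-seq.

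Before a cell divides, the origin recognition complex, CDC-6 and CDT-1 load the MCM helicase onto DNA, and CDKs then fire the loaded origins and later drive entry into mitosis. Polo and Aurora kinases build the spindle, the kinetochore monitors its attachment, and the anaphase-promoting complex ends mitosis by marking cyclin B and other proteins for destruction. In C. elegans the adult soma does not divide, so these genes are known mainly from the germline, the embryo and larval cell lineages, and much of their mRNA is supplied to the egg by the mother.

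The study sequenced polyadenylated mRNA and ribosome-protected footprints (Ribo-seq, the part of each mRNA covered by translating ribosomes) from 48 libraries, 24 per assay. Its first experiment compared Fed with Starved worms, with 6 libraries per group and assay. Its second compared Empty_vector with RNA interference (RNAi) against E02H1.1 and against C27F2.4, with 4 libraries per group and assay; these genes encode the worm relatives of enzymes that methylate small-subunit ribosomal RNA. The labels give neither the strain, the length of starvation nor the generation sampled, nor whether each replicate came from its own culture. The p-values therefore speak of the spread among these libraries, which may be technical. The knockdown libraries are named by the letters A to D of their table columns.

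Total counts per library ran from 19.2 to 22.8 M in mRNA-seq and from 3.91 to 11.7 M in Ribo-seq (M, counts in units of 1e+06). The labels call every sample young adult. Transcripts that mark adults were nearly absent, with a summed mRNA level of 2.62 to 6.3 CPM (counts scaled to 1e+06 per library) for 10 yolk and adult cuticle genes and of 1.09 to 2.39 CPM for the 15 of 16 sperm genes with rows, among which msp-19 was at 0 in all 24 libraries. By contrast 13 early zygotic genes summed to 270 to 408 CPM, 16 germline and oocyte genes to 843 to 1810 CPM, and 10 late embryonic sheath and matrix genes to 3640 to 4990 CPM, so embryonic transcripts were present in every library. Each RNAi target was lower in its own libraries: E02H1.1 mRNA stood at 17 to 20.8 CPM against 62.7 to 75.4 CPM in Empty_vector, and C27F2.4 mRNA at 29.3 to 34 CPM against 55.8 to 66 CPM. Starved libraries 1 and 5 had been set apart in an earlier account of these data, and the counts of called genes in the Starved comparison are also given without them.

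The ratio of footprints to mRNA was high for the MCM subunits in every group. This ratio, the translational efficiency (TE), is given as the log2 value deposited for a library less the median of all genes in it, so that 0 is the median gene. It compares a gene's footprints with its own mRNA, and was not scaled by gene length or by the coding share of an mRNA. In Fed libraries the 6 MCM subunits, which form the replicative helicase, had mean TE levels from 1.57 for mcm-4 to 2.04 for mcm-2. These lay at percentiles 98.7 to 99.4 of 10700 genes, with 135 genes above the lowest subunit and 60 above the highest. The subunits kept percentiles of 96.8 to 99.4 in all 5 groups.

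The fork and nucleotide supply genes followed. In Fed libraries the mean TE level was 1.68 ± 0.03 (SD, n = 6) for rpa-1, the large subunit of the single-strand binding protein, and 1.52 ± 0.05 for rnr-1, the large subunit of ribonucleotide reductase. The lowest of these 5 genes was the sliding clamp pcn-1 at 0.69 ± 0.10, at percentile 83.2. Mitotic kinases and kinetochore genes lay at percentiles 69.3 to 96.5, with bub-1, a checkpoint kinase, the highest.

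The regulators of CDK activity were on the other side of the median. In Fed libraries the phosphatase cdc-25.1, the Wee-family kinase wee-1.1, the Myt-family kinase wee-1.3 and the CDK inhibitor cki-1 had percentiles of 31.3 to 47.3, and the mean of each of the 4 stayed below the median in each of the 5 groups. The lowest gene of all 35 was cdk-2 at -1.14 ± 0.18, at percentile 11.8, while cdk-1 was at 0.91 ± 0.06, at percentile 90.7. Among licensing factors cdc-6 stood apart at -0.41 ± 0.10 and was below the median in all 5 groups, at percentiles 27.6 to 44.1, and among genes of the anaphase-promoting complex emb-30 was at 0.00 ± 0.08, with emb-27 and fzy-1 at 1.24 ± 0.09 and 1.03 ± 0.08. In all, 24 of the 35 lay in the top 25% of genes and 18 in the top 10% in Fed. For comparison, 29 other replication genes had a median percentile of 74.1, 51 other mitosis genes 70.3, 19 other genes of G1 to S control 47.7, and 9 other genes of the anaphase-promoting complex 44.2, the 4 members of that complex being at 86.9. How the authors' counting treats untranslated parts of an mRNA is not stated, and it could shift this ratio between genes.

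**Figure D1:**
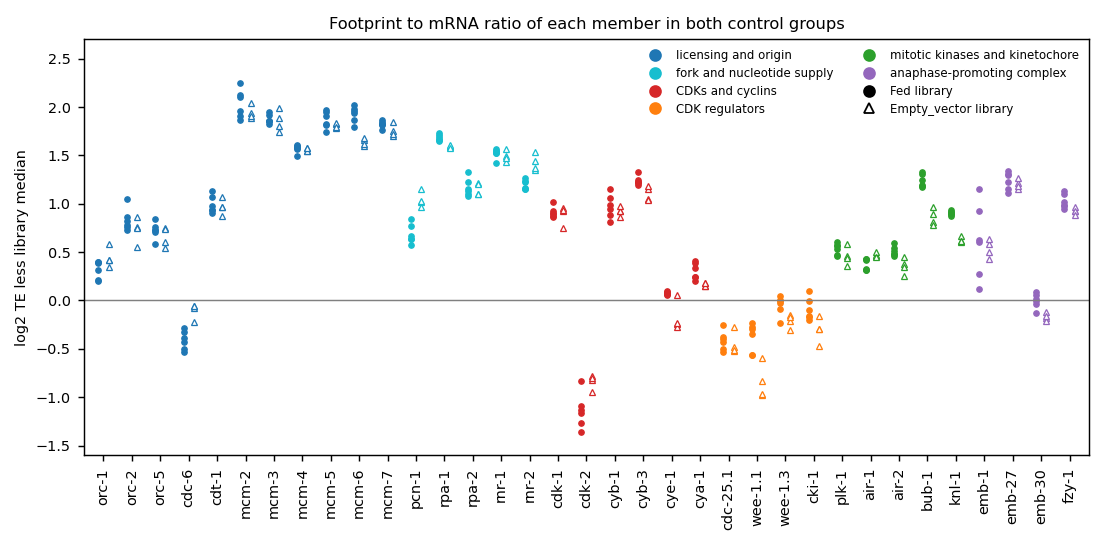
TE level of each of the 35 genes on the y axis (log2 TE less library median, 0 being the median gene), with 1 point per library for the 6 Fed (filled circles) and 4 Empty_vector (open triangles) libraries, coloured by role. The 6 MCM subunits sit at the top with rpa-1, between 1.57 and 2.04 on average in Fed, and the means of cdk-2 and the CDK regulators lie below 0.

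Starvation was compared with feeding first. In Starved libraries 22 of the 35 genes fell and 1 rose in mRNA, and 29 fell and none rose in footprints. Among all genes tested, 10.2% fell and 11.8% rose in mRNA, 21.9% together, and 14.7% fell and 13.9% rose in footprints, 28.6% together. The changes were small: the median log2 fold change of the 35 was -0.17 in mRNA and -0.23 in footprints, against 0.003 and 0.009 for all genes. All 6 Starved libraries were below all 6 Fed libraries for 12 genes in mRNA and for 17 genes in footprints. How many of all genes were separated in this way was not counted. In total 20 genes fell in both assays, 2 in mRNA alone and 9 in footprints alone, and 4 in neither. Tests are edgeR's quasi-likelihood test with Benjamini-Hochberg adjustment over all genes, called at an adjusted p under 0.05.

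Without Starved libraries 1 and 5, 15 of the 35 fell and 1 rose in mRNA, and 21 fell in footprints. Shares of all genes called without these libraries are not given here. The mRNA calls lost were those of mcm-5, mcm-6, cdk-2, cyb-1, cye-1, cya-1 and air-2, and the footprint calls lost were those of orc-1, orc-2, orc-5, cdk-1, cyb-1, cya-1, wee-1.3 and air-2. Scaling by library totals alone, in place of TMM, changed the split over all genes in mRNA from 1564 higher and 1351 lower to 1216 higher and 2012 lower, and that of the 35 to 1 higher and 27 lower.

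Helicase subunits fell in both assays. In mRNA 5 of the 6 MCM subunits fell, with a median change of -0.18, and in footprints all 6 fell, by -0.46 to -0.27 with a median of -0.41. Without Starved libraries 1 and 5 these counts were 3 and 6. For mcm-3 the lowest, median and highest mRNA levels were 254, 267 and 283 CPM in Fed and 186, 205 and 225 CPM in Starved. The groups did not overlap, and mRNA fell by 0.38 ± 0.04 (log2, SE; edgeR adjusted p = 7.57e-08). For mcm-6 the footprints were 700.0, 755 and 793 CPM in Fed and 485, 537 and 613 CPM in Starved. Here too all Starved libraries lay below all Fed libraries, with a change of -0.46 ± 0.05 (edgeR adjusted p = 2.59e-09), whereas its mRNA changed by -0.17 ± 0.06 with overlapping groups (edgeR adjusted p = 0.0278), a call lost without Fed library 2, 5 or 6 or Starved library 5 or 6. Footprints of mcm-4 ran at 698, 768 and 777 CPM in Fed and 490, 568 and 617 CPM in Starved, a change of -0.43 ± 0.05 (edgeR adjusted p = 1.7e-08). The most abundant licensing mRNA, mcm-7, had 619, 679 and 716 CPM in Fed and 544, 600 and 634 CPM in Starved, which overlapped, and it changed by -0.19 ± 0.04 (edgeR adjusted p = 0.000931).

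The other licensing factors moved less in footprints. In mRNA orc-2 and cdt-1 fell, while orc-1, orc-5 and cdc-6 did not pass the test, at -0.10, 0.02 and -0.10. In footprints all 5 fell, by -0.23 to -0.16, and 2 of 5, cdc-6 and cdt-1, without Starved libraries 1 and 5. The change of orc-2 was then -0.08, and its call was also lost without Fed library 1 or 4 or Starved library 1 or 5 alone.

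In the fork and nucleotide supply group 4 of 5 genes fell in mRNA and all 5 in footprints. Ribonucleotide reductase makes the deoxynucleotides for DNA synthesis, and its large subunit rnr-1 had the largest footprint change of the 5. Footprints of rnr-1 were 957, 1043 and 1079 CPM in Fed and 687, 734 and 855 CPM in Starved, with no overlap and a change of -0.47 ± 0.05 (edgeR adjusted p = 8.31e-10). Its mRNA was 341, 373 and 381 CPM in Fed and 305, 323 and 356 CPM in Starved and changed by -0.17 ± 0.04. The small subunit rnr-2 had 758, 793 and 826 mRNA CPM in Fed and 637, 705 and 746 CPM in Starved, again without overlap, a change of -0.18 ± 0.04 (edgeR adjusted p = 0.00107). Footprints of rnr-2, at 1642 to 1873 CPM in Fed and 1335 to 1646 CPM in Starved, overlapped. The single-strand binding subunits rpa-1 and rpa-2 fell in both assays, and pcn-1 fell in footprints, by -0.29, with -0.10 in mRNA not past the test.

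Of the CDKs and cyclins, 5 of 6 fell in mRNA and 4 of 6 in footprints, the latter by -0.20 to -0.13. Without Starved libraries 1 and 5 the counts were 1 and 1, with cyb-3 the gene that fell in both. Leaving out 1 library gave 2 genes in mRNA without Fed library 2 or 3 or Starved library 1 or 5, and 3 without Fed library 1, 4 or 5 or Starved library 2. In footprints it gave 2 without Fed library 1 or 5 or Starved library 1 or 5. Cyclin B gene cyb-3 had mRNA at 1267, 1352 and 1424 CPM in Fed and 1053, 1156 and 1231 CPM in Starved, which did not overlap, and changed by -0.23 ± 0.04 (edgeR adjusted p = 5.53e-05). Its footprints changed by -0.20 with overlap. The G1 cyclin cye-1 and its partner cdk-2 were near the threshold in mRNA, at -0.13 and -0.16 (edgeR adjusted p = 0.049 and 0.0351), and both calls were lost without Fed library 2, 3, 4 or 5 or Starved library 1, 2, 5 or 6, among others. Their footprint changes were -0.04 and -0.03 and did not pass. The kinase gene cdk-1 changed by -0.12 in mRNA and -0.17 in footprints.

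Regulators of CDK activity held both the strongest fall and the only rise. The kinase wee-1.1, of the family that restrains CDKs by phosphorylation, had mRNA at 18.3, 22.0 and 23.3 CPM in Fed and 10.9, 13.7 and 14.99 CPM in Starved. No Starved library reached the lowest Fed library, and the change was -0.67 ± 0.08 (edgeR adjusted p = 9.12e-07). Its footprints behaved alike, at 12.7, 16.0 and 18.6 CPM in Fed and 8.58, 9.83 and 12.2 CPM in Starved, a change of -0.65 ± 0.12 (edgeR adjusted p = 4.34e-05). The wee-1.1 gene overlaps exc-7, whose mRNA, at a mean of 107 CPM, changed by 0.04, and the strand setting of the counting is not stated. The opposing phosphatase cdc-25.1 also fell, with mRNA at 102, 109 and 114 CPM in Fed and 81.7, 89.9 and 95.4 CPM in Starved, a change of -0.28 ± 0.04 (edgeR adjusted p = 1.81e-05), and its footprints fell by 0.38 on the log2 scale.

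The CDK inhibitor cki-1, which holds cells in G1 and is known from starved, arrested larvae, was the gene that rose in mRNA. It had 139, 151 and 167 CPM in Fed and 166, 186 and 191 CPM in Starved. The groups met at 1 point, where the highest Fed library was just above the lowest Starved one, and the change was 0.26 ± 0.04 (edgeR adjusted p = 4.04e-05). Its footprints were 124, 140 and 153 CPM in Fed and 140, 144 and 148 CPM in Starved, with a change of 0.05 ± 0.05 that did not pass the test.

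Among mitotic kinases and kinetochore genes air-2 and knl-1 fell in mRNA and plk-1, air-2, bub-1 and knl-1 fell in footprints, with air-2 not past the test in either assay without Starved libraries 1 and 5. The checkpoint kinase bub-1 had 271, 284 and 291 mRNA CPM in Fed and 250, 278 and 298 CPM in Starved, overlapping throughout, with a change of -0.04 that did not pass. Its footprints were 629, 653 and 699 CPM in Fed and 459, 526 and 565 CPM in Starved, without overlap, and fell by 0.33 on the log2 scale. The Aurora A kinase air-1 did not pass in either assay, at -0.05 and 0.05.

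Of the anaphase-promoting complex, the activator fzy-1 and the subunit emb-27 fell in both assays and emb-1 and emb-30 in neither. The Cdc20 relative fzy-1 had mRNA at 239, 246 and 257 CPM in Fed and 182, 209 and 220 CPM in Starved, with no overlap and a change of -0.27 ± 0.04 (edgeR adjusted p = 9.66e-06). The emb-27 gene overlaps pch-2, at a mean of 48.8 mRNA CPM.

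**Figure D2:**
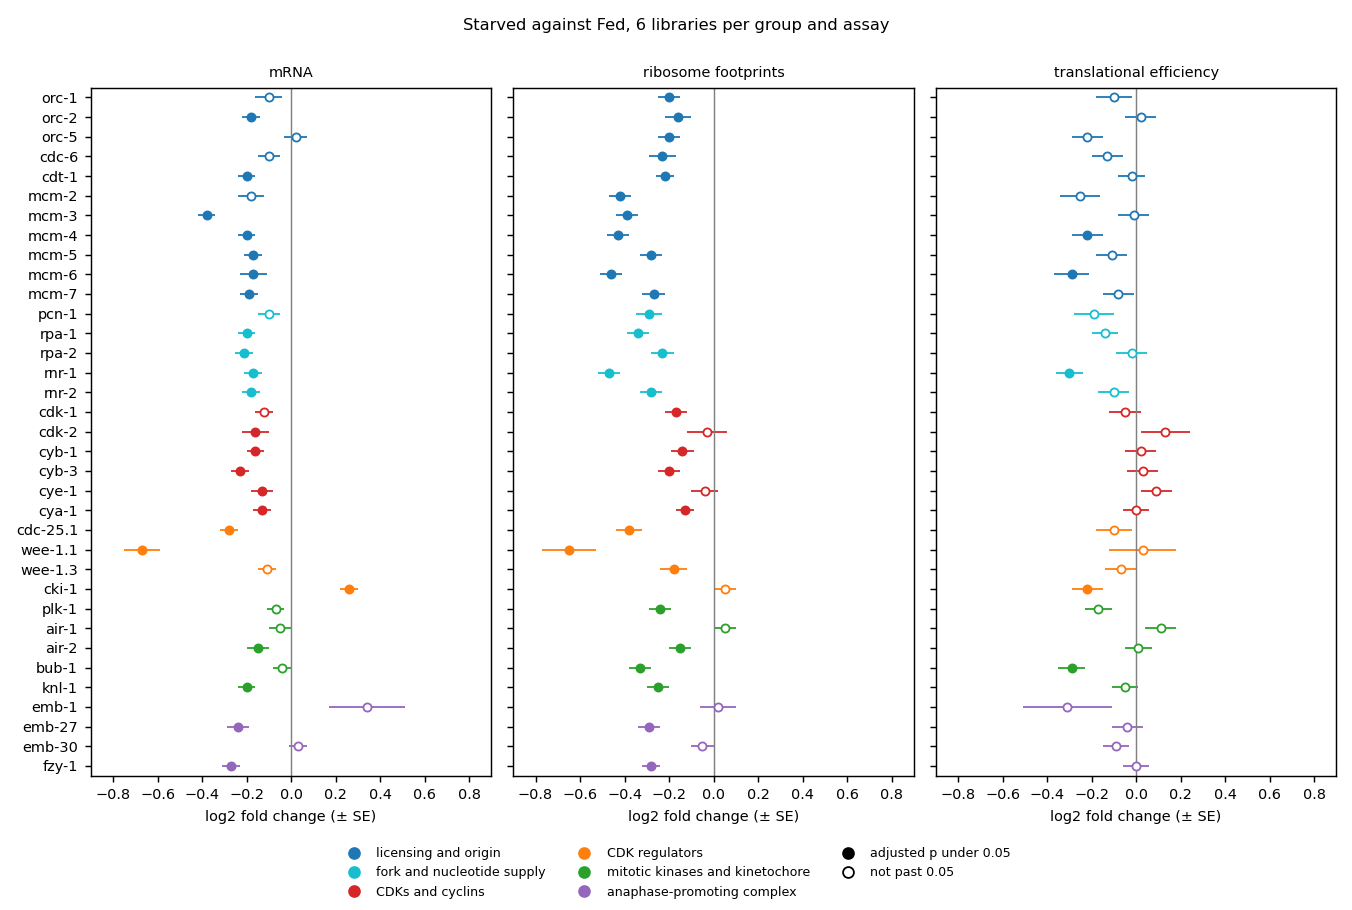
Log2 fold change, Starved against Fed (x axis, points with SE bars), of each gene (y axis, coloured by role) in mRNA, footprints and TE; filled points passed an adjusted p of 0.05. Most points lie left of 0, with 22 genes lower in mRNA and 29 in footprints, wee-1.1 farthest left and cki-1 right of 0 in mRNA.

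The change in TE was tested directly as an interaction of assay and group. For 27 of the 35 genes the footprint change lay below the mRNA change. TE fell for 5 genes and rose for none, where 6.29% of all genes were called, 3.75% lower and 2.54% higher. The median TE change of the 35 was -0.08, against 0.005 for all genes. With each Ribo-seq library tied to the mRNA-seq library of its name as 1 culture, as the series' text calls them matched, TE fell for 9 genes. For that fit the share of all genes called is not given here.

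Of the 5 called genes, rnr-1 and bub-1 had the largest TE changes. The TE level of rnr-1 was 1.43, 1.54 and 1.56 in Fed and 1.17, 1.18 and 1.31 in Starved, a change of -0.30 ± 0.06 (edgeR adjusted p = 0.00273). For bub-1 it was 1.17, 1.22 and 1.33 against 0.82, 0.94 and 1.02, a change of -0.29 ± 0.06 (edgeR adjusted p = 0.00215). Neither gene's groups overlapped.

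TE also fell for the helicase subunits mcm-6 and mcm-4, by -0.29 ± 0.08 and -0.22 ± 0.07 (edgeR adjusted p = 0.0217 and 0.0382), and for cki-1, by -0.22 ± 0.07 (edgeR adjusted p = 0.0426). Their groups did not overlap. The count of 5 was 2 without Fed library 4 or Starved library 2, 3 without Fed library 5, and 5 without Starved libraries 1 and 5, where cki-1 did not pass and mcm-2 did. The cki-1 call was also lost without Fed library 4, 5 or 6 or Starved library 1, 2, 4 or 5. That of mcm-4 was lost without Fed library 1, 2, 3, 4 or 5 or Starved library 2, and with library totals. That of mcm-6 was lost without Fed library 4 or Starved library 2. Shares of all genes called with libraries left out are not given here. Scaling by library totals alone gave 3 genes lower and none higher, and changed the split over all genes from 269 higher and 396 lower to 539 higher and 278 lower.

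**Figure D3:**
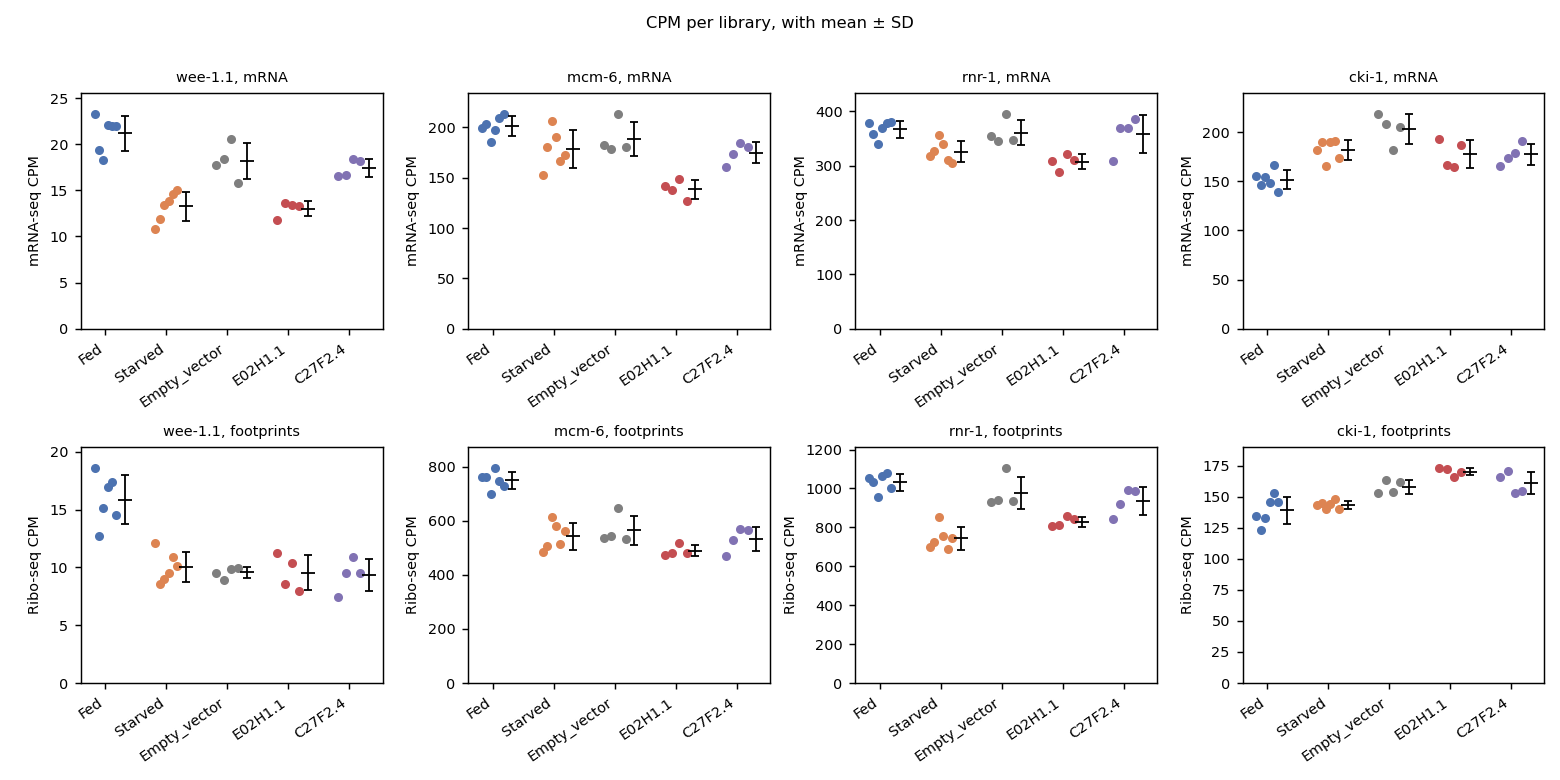
CPM per library (y axis, linear from 0) of wee-1.1, mcm-6, rnr-1 and cki-1 in the 5 groups (x axis), mRNA above and footprints below, with the mean ± SD at the right of each group. Starved libraries of wee-1.1 lie below every Fed library in both assays, and those of mcm-6 and rnr-1 do so in footprints but not in mRNA.

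The 109 other cell cycle genes with rows, of 116 listed, fell more often than they rose. In Starved libraries 45 of 109 fell and 1 rose in mRNA, and 59 of 108 fell and 2 rose in footprints. Of all genes 10.2% fell and 11.8% rose in mRNA, and 14.7% fell and 13.9% rose in footprints. Among replication genes 16 of 29 fell in mRNA and 17 of 29 in footprints, where mcm-10, which helps to activate the loaded helicase, fell by 0.52 ± 0.06 and pole-1, the catalytic subunit of DNA polymerase epsilon, by 0.48 ± 0.05 on the log2 scale. Among mitosis genes 22 of 51 fell in mRNA and 33 of 51 in footprints, where the kinetochore checkpoint genes rod-1 and zwl-1 changed by -0.57 ± 0.05 and -0.45 ± 0.06. In G1 to S control 5 of 20 fell and 1 rose in mRNA. The ubiquitin ligase scaffold cul-1 fell by 0.36 ± 0.04 on the log2 scale, and footprints of the CDK inhibitor cki-2 rose by 0.30 ± 0.08 (edgeR adjusted p = 0.00411).

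Some marker transcripts of tissues and stages moved with starvation. The 13 early zygotic genes summed to 349 to 408 mRNA CPM in Fed and 270 to 338 CPM in Starved, and 6 of the 13 fell. Germline and oocyte genes summed to 1440 to 1810 mRNA CPM in Fed and 1360 to 1650 CPM in Starved, with 1 of 16 lower, and 9 of the 12 with footprints fell there. The 10 muscle, gut and neuron genes summed to 2270 to 2420 mRNA CPM in Fed and 2360 to 3270 CPM in Starved, with 4 higher. In footprints 1 of these was higher and 1 lower. Of the 10 late embryonic sheath and matrix genes none was called in mRNA, and 4 were higher in footprints. The part of these markers in the results was not tested, and in bulk samples fewer dividing cells and less RNA per cell cannot be told apart.

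The second experiment asked what knockdown of the methyltransferase genes did to the same set. Both knockdowns were set against the same 4 Empty_vector libraries per assay, so their changes are not independent. With E02H1.1 RNAi 28 of the 35 genes fell in mRNA and none rose, where 19.6% of all genes fell and 19.9% rose, 39.5% together. All 35 had a negative change, with a median of -0.23 against -0.006 for all genes. For 27, all 4 libraries were below all Empty_vector libraries, and the share of all genes so separated was not counted. In footprints 12 fell and none rose, where 9.23% of all genes fell and 10.7% rose, 20% together, and the median change was -0.10. Together 11 genes fell in both assays, 17 in mRNA alone, 1 in footprints alone and 6 in neither.

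With C27F2.4 RNAi 3 of the 35 genes fell in mRNA, where 5.56% of all genes fell and 8.11% rose, 13.7% together, and the median change was -0.05. In footprints none of the 35 genes passed the test in edgeR without a replicate block or in DESeq2. At the same adjusted threshold 2.11% of all genes fell and 4.96% rose, 7.08% together. At an unadjusted p under 0.05, 2 of the 35 were lower, and the share of all genes at that threshold was not counted. Changes in footprints ran from -0.24 to 0.03 with SE of 0.05 to 0.14. Without C27F2.4 library C, air-1 passed in footprints, at -0.19.

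**Figure D4:**
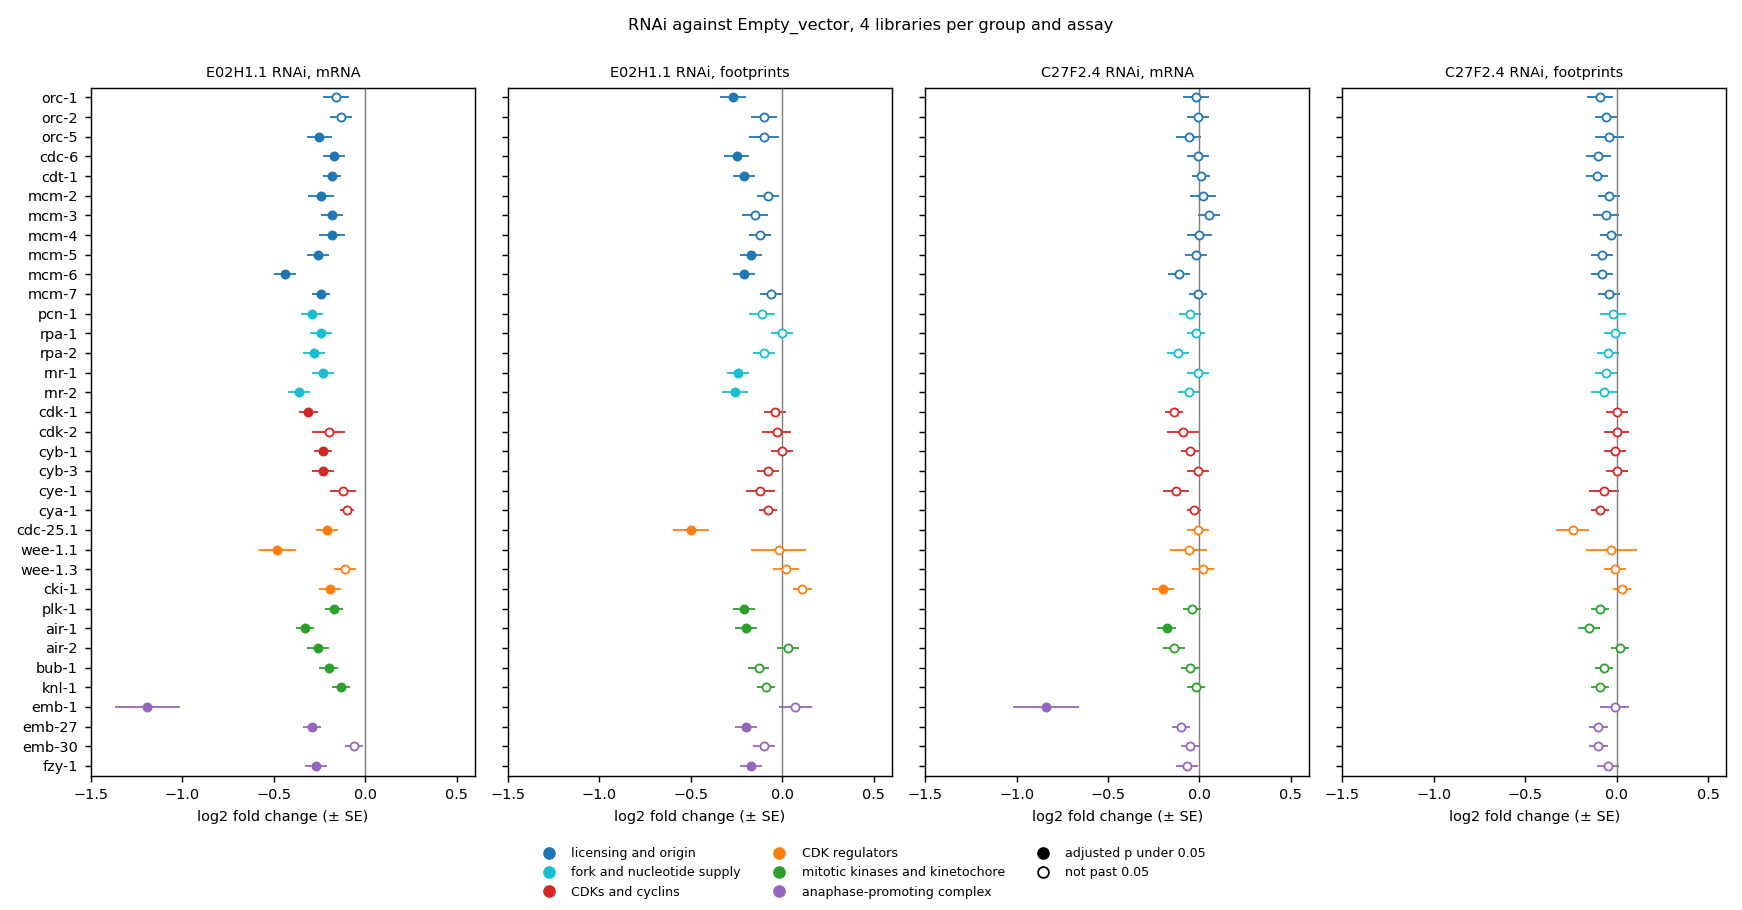
Log2 fold change against Empty_vector (x axis, points with SE bars) of each gene (y axis, coloured by role) for E02H1.1 RNAi and C27F2.4 RNAi in mRNA and footprints; filled points passed an adjusted p of 0.05. With E02H1.1 RNAi all 35 mRNA points lie left of 0 and 28 are filled, with 12 filled in footprints, and with C27F2.4 RNAi 3 are filled in mRNA and none in footprints.

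Every fork and nucleotide supply gene fell in mRNA with E02H1.1 RNAi, and 9 of 11 licensing factors did, the MCM subunits all 6 with a median of -0.24. Without Empty_vector library C the licensing count was 5 and the MCM count 3. The mcm-4 call was also lost without E02H1.1 library A, B or D, and with DESeq2 size factors, library totals or no low-count filter. That of mcm-3 was also lost without E02H1.1 library D. The mRNA of mcm-6 was 182, 178, 213 and 180 CPM in Empty_vector libraries A to D and 142, 137, 149 and 126 CPM in E02H1.1 libraries A to D. All 4 knockdown libraries were lower, by -0.44 ± 0.06 (edgeR adjusted p = 3.43e-06), and C27F2.4 libraries, at 161, 174, 184 and 180 CPM, overlapped Empty_vector. The abundant mcm-7 mRNA went from 638, 628, 716 and 639.9 CPM to 570.2, 534, 577 and 534 CPM, again without overlap, by -0.24 ± 0.05 (edgeR adjusted p = 0.000493). Footprints of 2 MCM subunits fell, mcm-5 and mcm-6, and the median over the 6 was -0.13. Neither passed without Empty_vector library C or E02H1.1 library A or B, and 1 did without Empty_vector library B or E02H1.1 library D or with library totals.

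For rnr-2 the mRNA was 612, 614, 684 and 601 CPM in Empty_vector and 507, 499, 507 and 447 CPM with E02H1.1 RNAi, a change of -0.36 ± 0.06 (edgeR adjusted p = 4.09e-05) without overlap. Its footprints were 1510, 1533, 1879 and 1575 CPM in Empty_vector and 1335, 1310, 1415 and 1383 CPM with E02H1.1 RNAi, a change of -0.26 ± 0.07 (edgeR adjusted p = 0.00939). Empty_vector library C was the highest of its group in these values, and without it 6 rather than 12 of the 35 genes fell in footprints and 23 rather than 28 in mRNA. The shares of all genes called without that library are not given here. The rnr-2 gene overlaps C03C10.2, whose mean mRNA level was 3.65 CPM.

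Besides rnr-2, the footprints that fell most with E02H1.1 RNAi were those of cdc-25.1, orc-1 and cdc-6. The phosphatase cdc-25.1 had 61.8, 64.8, 80.7 and 61.2 CPM in Empty_vector and 44.1, 48.6, 52.9 and 45.1 CPM with E02H1.1 RNAi, a change of -0.50 ± 0.10 (edgeR adjusted p = 0.000956), the largest footprint change of the 35. For orc-1, a subunit of the origin recognition complex, footprints were 107, 111, 120.2 and 116 CPM against 83.8, 94.4, 107 and 91.6 CPM, a change of -0.27 ± 0.07 (edgeR adjusted p = 0.0114). Footprints of cdc-6 changed by -0.25 ± 0.07 (edgeR adjusted p = 0.0202), with 71.10 to 87.7 CPM in Empty_vector just above 60.9 to 71.06 CPM with E02H1.1 RNAi. It did not pass without E02H1.1 library B or Empty_vector library C.

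The kinase wee-1.1 had mRNA at 17.7, 18.4, 20.6 and 15.8 CPM in Empty_vector and 11.8, 13.6, 13.4 and 13.3 CPM with E02H1.1 RNAi, a change of -0.48 ± 0.10 (edgeR adjusted p = 0.000602). Its footprints, at 8.92 to 9.94 CPM and 7.99 to 11.2 CPM, overlapped and changed by -0.02 ± 0.15. The overlapping gene exc-7 rose by 0.40 in mRNA. Cyclin cyb-3 had 1218, 1174, 1401 and 1248 mRNA CPM in Empty_vector and 1097, 1017, 1120.0 and 1067 CPM with E02H1.1 RNAi, a change of -0.23 ± 0.06 (edgeR adjusted p = 0.00283). No CDK or cyclin passed the test in footprints.

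All 5 mitotic kinases and kinetochore genes fell in mRNA with E02H1.1 RNAi, bub-1 from 302, 299, 334 and 315 CPM to 267, 249.8, 292 and 277 CPM, by 0.20 ± 0.05 on the log2 scale (edgeR adjusted p = 0.00288). The knl-1 call was lost without E02H1.1 library A or D or Empty_vector library C or D, where its change was -0.14 to -0.09. The Aurora kinase air-1, which matures centrosomes, was at 127, 128, 139 and 126 mRNA CPM in Empty_vector, at 100.3, 99.0, 108 and 105 CPM with E02H1.1 RNAi, and at 107, 115, 122 and 114 CPM with C27F2.4 RNAi. It fell with both, by -0.33 ± 0.05 and -0.18 ± 0.05 (edgeR adjusted p = 1.31e-05 and 0.0142); without Empty_vector library C the latter did not pass. The activator fzy-1 fell with E02H1.1 RNAi from 229.9, 236, 278 and 243 CPM to 198, 203, 221 and 196 CPM, by 0.27 ± 0.06 on the log2 scale (edgeR adjusted p = 0.000888).

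The inhibitor cki-1, which rose in Starved libraries, fell in mRNA with both knockdowns. Its mRNA was 218, 208, 181 and 206 CPM in Empty_vector, 193, 167, 165 and 187 CPM with E02H1.1 RNAi and 166, 174, 178 and 191 CPM with C27F2.4 RNAi. Library C of Empty_vector overlapped both knockdowns, and the changes were -0.19 ± 0.06 and -0.20 ± 0.06 (edgeR adjusted p = 0.0116 and 0.025). The second did not pass without C27F2.4 library A or B or Empty_vector library A, B or D, where it was -0.19 to -0.16. Its footprints changed by 0.11 and 0.03, which did not pass.

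The largest mRNA change of the set was in emb-1, a small subunit of the anaphase-promoting complex. Its mRNA was 21.5, 20.9, 21.3 and 22.1 CPM in Empty_vector, 13.7, 7.54, 9.09 and 7.38 CPM with E02H1.1 RNAi and 11.5, 10, 9.65 and 16.8 CPM with C27F2.4 RNAi. No knockdown library reached the Empty_vector level, and the changes were -1.19 ± 0.18 and -0.84 ± 0.18 (edgeR adjusted p = 8.21e-05 and 0.00429). Its footprints stayed between 22.3 and 34.0 CPM over all 5 groups, and changed by 0.07 ± 0.09 and -0.01 ± 0.08. Its mRNA level also varied within groups, at 18.3 ± 4.7 CPM (SD, n = 6) in Fed and 23.2 ± 3.97 CPM (SD, n = 6) in Starved, which overlapped.

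The TE of emb-1 rose, by 1.25 ± 0.22 with E02H1.1 RNAi (edgeR adjusted p = 0.000472) and by 0.83 ± 0.21 with C27F2.4 RNAi (edgeR adjusted p = 0.0499). The second lay at the threshold and did not pass under 7 of 13 alternatives. These were the analysis without a low-count filter, at 0.83, and those without C27F2.4 library B or C or any 1 of the 4 Empty_vector libraries, at 0.73 to 0.86. The gene has the shortest span of the 35 in RefSeq's annotation. Of 315 genes with a span of at most 500 bases tested in mRNA, chosen for comparison after the emb-1 values were seen, 79 fell and 25 rose with E02H1.1 RNAi and 63 fell and 14 rose with C27F2.4 RNAi. Their median mRNA changes were -0.18 and -0.24, and in TE the medians were 0.38 and 0.33 over 181 such genes. The part of gene length in the emb-1 result was not tested.

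**Figure D5:**
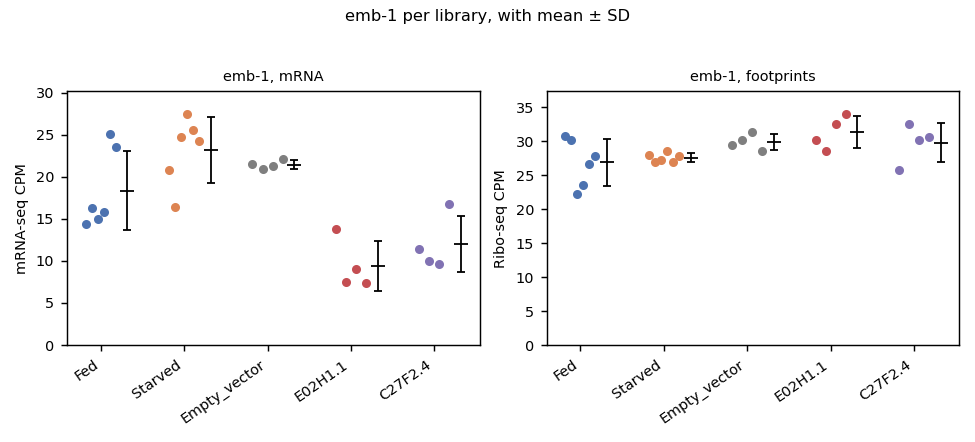
CPM per library of emb-1 (y axis, linear from 0) in mRNA (left) and footprints (right) for the 5 groups, with the mean ± SD at the right of each group. The mRNA of both knockdowns lies at 7.38 to 16.8 CPM, below the 20.9 to 22.1 CPM of Empty_vector, and footprints of all groups lie between 22.3 and 34.0 CPM.

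With E02H1.1 RNAi the footprint change lay above the mRNA change for 27 of the 35 genes. TE rose for 4 and fell for none, where 10.8% of all genes were called, 5.59% higher and 5.24% lower, and 28 of 35 had a positive TE change with a median of 0.10 against 0.034 for all genes. Besides emb-1 these were cki-1, the Aurora B kinase air-2 and cdk-1. TE levels of cki-1 were -0.47, -0.30, -0.16 and -0.29 in Empty_vector and -0.14, 0.05, 0.03 and -0.10 with E02H1.1 RNAi, a change of 0.30 ± 0.08 (edgeR adjusted p = 0.0143). For air-2 they were 0.38, 0.34, 0.25 and 0.46 against 0.60, 0.63, 0.59 and 0.62, and for cdk-1 0.75, 0.95, 0.93 and 0.94 against 1.09, 1.13, 1.12 and 1.15. The groups did not overlap, and the changes were 0.29 ± 0.09 and 0.27 ± 0.08 (edgeR adjusted p = 0.025 and 0.0337).

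With same-named libraries treated as 1 culture, TE rose for 13 genes and fell for 1 with E02H1.1 RNAi. With C27F2.4 RNAi it then rose for 2 and fell for 1. The share of all genes called in this culture fit is not given here. Without it 1 gene had risen with C27F2.4 RNAi, emb-1, where 0.877% of all genes were called, 0.364% higher and 0.513% lower. The 4 calls of the E02H1.1 comparison were 2 without Empty_vector library A or E02H1.1 library A or D, and 1 without E02H1.1 library B. Shares of all genes called without these libraries are not given here either. The cdk-1 call was lost when any 1 of the 8 Empty_vector and E02H1.1 libraries other than Empty_vector C was left out.

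Set against each other directly, the knockdowns differed in mRNA. Levels were lower with E02H1.1 RNAi than with C27F2.4 RNAi for 14 of the 35 genes and higher for none, where 1.64% of all genes were lower and 1.63% higher, 3.26% together. They were 6 licensing factors, 4 fork and nucleotide supply genes, cyb-1, cyb-3, wee-1.1 and emb-27, and the median difference over the 35 was -0.18. The largest were wee-1.1 at -0.42 ± 0.10, mcm-6 at -0.33 ± 0.06 and rnr-2 at -0.30 ± 0.06 (edgeR adjusted p = 0.0232, 0.00317 and 0.00643).

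This count depended on single libraries. It was 26 without C27F2.4 library A, 4 without E02H1.1 library A, 3 without C27F2.4 library C or D, and 2 without C27F2.4 library B or E02H1.1 library B or D. Shares of all genes called with these libraries left out are not given here. Scaling by library totals gave 17 of the 35, and a split over all genes of 186 higher and 291 lower in place of 222 and 223. In footprints none of the 35 passed in edgeR without a replicate block or in DESeq2, where 1.25% of all genes were called, 0.615% higher and 0.633% lower. At an unadjusted p under 0.05, 6 of the 35 were lower. Without C27F2.4 library A, cdc-25.1, orc-1, rnr-1 and rnr-2 passed, at -0.34 to -0.22. In TE none passed by either tool, where 0.0467% of all genes were called, 0.00933% higher and 0.0373% lower. At an unadjusted p under 0.05, 6 of the 35 were higher, and 5 rose with same-named libraries as 1 culture. Shares of all genes were not counted at the unadjusted threshold, in footprints or TE, and are not given here for the culture fit.

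The other cell cycle genes were counted in the same way. With E02H1.1 RNAi 62 of 109 fell and 1 rose in mRNA and 27 of 108 fell in footprints. Of all genes 19.6% fell and 19.9% rose in mRNA, and 9.23% fell and 10.7% rose in footprints. With C27F2.4 RNAi 4 of 109 fell in mRNA and 2 of 108 in footprints. Of all genes 5.56% fell and 8.11% rose there in mRNA, and 2.11% fell and 4.96% rose in footprints. In mRNA psf-2 and psf-1, subunits of the GINS complex of the active helicase, changed by -0.45 ± 0.09 and -0.39 ± 0.08 with E02H1.1 RNAi, csc-1 of the chromosomal passenger complex by -0.40 ± 0.07, and apc-11, the RING subunit of the anaphase-promoting complex, by -0.45 ± 0.08. The last also fell with C27F2.4 RNAi, by 0.35 ± 0.08 on the log2 scale. Footprints of klp-18, a kinesin of the acentrosomal meiotic spindle, fell with both, by -0.52 ± 0.09 and -0.36 ± 0.08 (edgeR adjusted p = 0.000239 and 0.00694).

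Some marker transcripts of tissues and stages moved with the knockdowns too. The 13 early zygotic genes summed to 323 to 397 mRNA CPM in Empty_vector, 273 to 286 CPM with E02H1.1 RNAi and 292 to 349 CPM with C27F2.4 RNAi, with 6 and 0 lower. The 16 germline and oocyte genes summed to 1030 to 1230, 843 to 976 and 913 to 1280 CPM, with 7 and 0 lower. The 10 muscle, gut and neuron genes summed to 1770 to 2130, 2450 to 2630 and 2240 to 2430 CPM, with 7 higher in each knockdown and 1 lower with E02H1.1 RNAi. In footprints 3 of these were higher with E02H1.1 RNAi and 1 with C27F2.4 RNAi. Of the 10 late embryonic sheath and matrix genes 1 rose and 1 fell in mRNA with E02H1.1 RNAi, and 1 fell with C27F2.4 RNAi. None of the sheath and matrix genes was called in footprints. The part of these markers in the results was not tested.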

How the data were processed

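For each assay the authors deposited a table of unscaled whole-number counts, with genes in rows and a column for every library. Per the submitters' processing notes cutadapt was used. Which aligner, counter, strand setting, build and annotation came after it is not given in the sources used here. A deposited table of log2 TE was recomputed, within 1e-09, from footprint count + 1 divided by mRNA count + 1 for columns of the same name.

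Counts were tested with edgeR 4.0.16 under R 4.3.3 by the two-sided robust quasi-likelihood test after filterByExpr and TMM, separately per assay for Fed with Starved and for the 3 RNAi groups, with Benjamini-Hochberg adjustment over all genes and a threshold of 0.05. A TE change was the interaction of assay and group in 1 model. Each SE was derived from the edgeR test, as the absolute log2 fold change divided by the square root of its F statistic. CPM use TMM-scaled library sizes of each experiment, so levels are comparable within an experiment. DESeq2 1.42.0, DESeq2 size factors, library totals, no filter, replicate blocks and left-out libraries were alternatives. The scripts were tested on simulated counts. Gene names, spans and overlaps came from reference tables of RefSeq, whose build could not be set against that of the files.

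The members and lists were chosen with earlier results of these data known. Genes named with values in every sample were, per comparison and assay, up to 4 called members in each direction with the largest change, and the most abundant Fed mRNA of each role; other pathway genes were named from the largest changes of each list. Same-named libraries of the assays are called matched in the series' text and deviated together, with a correlation over 0.1, in 12 of 24 cases. Sequences and coding lengths of the genes were not used here.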

Additional observations from a re-analysis of the deposited data

Results flagged for a closer look

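Of 56 groups of values tested for an outlying library, 7 had one, and chance flags about 1 in 20 groups. Empty_vector library C was the highest of its group in mRNA for mcm-6 (213 CPM, next 182), rnr-2 (684 CPM, next 614) and air-1 (139 CPM, next 128). E02H1.1 library D was the lowest for rnr-2 mRNA (447 CPM, next 499). In TE level, Fed library 6 was the lowest for rnr-1 (1.43, next 1.52) and mcm-4 (1.49, next 1.57), and Empty_vector library A for cdk-1 (0.75, next 0.93).

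The knockdown effects on mRNA differed for 14 genes in the direct test of E02H1.1 RNAi against C27F2.4 RNAi. Log2 differences were -0.19 for cdt-1, -0.26 for mcm-2, -0.23 for mcm-3, -0.24 for mcm-5, -0.33 for mcm-6 and -0.24 for mcm-7 among licensing factors. They were -0.24 for pcn-1, -0.22 for rpa-1, -0.22 for rnr-1 and -0.30 for rnr-2 among fork and nucleotide supply genes, and -0.18 for cyb-1, -0.22 for cyb-3, -0.42 for wee-1.1 and -0.19 for emb-27.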

How the results depend on the processing

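Of 29 named results, 20 kept their call under every alternative run and 0 changed sign. Libraries of 1 number or letter correlated in their deviations at -0.19 to 0.07 (Fed and Starved, 0 of 12 pairs over 0.1). The range was -0.06 to 0.25 for E02H1.1 and Empty_vector (1 of 4 in each assay) and -0.06 to 0.37 for C27F2.4 and Empty_vector (2 of 4 in each assay). E02H1.1 and C27F2.4 libraries were not checked against each other. The main fits did not take such libraries as pairs, though some deviated together. With the replicate number or letter as a block, the members called were 2 (C27F2.4 footprints, 0 without the block), 5 (C27F2.4 mRNA, 3), 4 (E02H1.1 against C27F2.4 footprints, 0) and 24 (the same in mRNA, 14). With same-named libraries as a block, TE calls were 9 for Starved, 14 for E02H1.1, 3 for C27F2.4 and 5 between the knockdowns. Shares of all genes called with either block are not given here. Library totals gave 3 TE calls for Starved, and no filter gave 0 for C27F2.4; the cause was not tested. DESeq2 and its size factors kept each count within 1.5 times.

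Leaving out 1 library gave, in mRNA, 19 to 28 calls for Starved, 23 to 31 for E02H1.1, 2 to 4 for C27F2.4 and 2 to 26 between the knockdowns. In footprints it gave 26 to 29, 6 to 12, 0 to 1 and 0 to 4, and in TE 2 to 5, 1 to 6, 0 to 1 and 0. Shares of all genes called in these fits are not given here. The replicate block changed no other count by over 1.5 times. Depth was lower in Ribo-seq than in mRNA-seq, and its part in these ranges was not tested.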
